A study of Danio rerio with 9 samples.

Results

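The B lineage regulators pax5 and spi1b and the immunoglobulin light chain gene igl1c1 were followed in sorted zebrafish leukaemia cells. The members were taken as the probe sets whose array annotation gives exactly 1 gene symbol equal to one of these names. This gave 5 probe sets for the 3 genes, 2 each for pax5 and spi1b and 1 for igl1c1, among 15502 tested probe sets and 8793 genes. The 3 genes were chosen by their differences between the models on these same arrays, so their own differences are given as a description and are not tested.

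Samples came from 2 zebrafish models of leukaemia, with 1 array each. The 6 hMYC-ER arrays (samples 1 to 6) come from fish carrying human MYC fused to an oestrogen receptor part, and the 3 hlk arrays (samples 7 to 9) come from hlk, an inherited leukaemia-prone line. In both models the material was green fluorescent cells labelled T-lymphoblasts, sorted out of fish bodies at the last disease stage. The labels give neither age nor drug treatment, and do not say what drives the fluorescent protein or whether each array is a separate fish, so any p-value reflects only how these samples vary, and that variation could be technical. As background, the hMYC-ER transgene of the published model is driven by the promoter of rag2, a recombinase gene that is active in early B and T cells alike. In bulk RNA, fewer cells of a type and less RNA per cell cannot be told apart. No scan dates or batches were at hand, so a batch effect that ran along the models and the models themselves cannot be told apart.

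Pax5 is a paired-box transcription factor that commits lymphoid progenitors to the B lineage and keeps them there. In mice it switches on B cell receptor genes and switches off genes of other lineages. Spi1b is one of the zebrafish forms of PU.1, an ETS-family factor needed for myeloid cells and for early B cells, and PU.1 is silenced in mouse thymocytes as they commit to the T lineage. Igl1c1 encodes a constant region of an immunoglobulin light chain, the smaller chain of the antibody molecule, which is made by B cells and not by T cells.

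The deposited values are signal intensities on a linear scale that the authors had already scaled. Below, "signal" is that deposited intensity, and "log2 signal" is the intensity after quantile normalization, with values under 16 raised to 16, so that a log2 signal of 4 is the floor. Differences are hMYC-ER minus hlk in log2 signal. Levels of different genes are not set against each other, because probes bind with different strength. Summed signals of a marker list are set between the models only, and a bright probe set can make up most of such a sum.

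In their brighter or only probe sets, all 3 genes were higher on every hMYC-ER array than on any hlk array. The regulator pax5 had, in its brighter probe set (Dr.8176.1.S1_at), a lowest signal of 1827, a median of 2175 and a highest of 2488 on the hMYC-ER arrays. The hlk signals of that probe set were 35.7, 8.05 and 4.34 on arrays 7, 8 and 9. Every hMYC-ER array therefore lay above every hlk array, and hlk arrays 8 and 9 lay at the floor. In log2 signal, pax5 stood at 11.09 ± 0.15 on the 6 hMYC-ER arrays and 4.31 ± 0.54 on the 3 hlk arrays (mean ± SD), a difference of 6.78 (SE 0.21). Because 2 of the 3 hlk values sit at the floor, this difference depends on where the floor is set. It was 7.78 with a floor at a signal of 1 and 5.09 with a floor at 64.

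The second pax5 probe set (Dr.8176.1.A1_at) gave a different picture. Its signal ran from 39.1 to 90.4 with a median of 68.1 on the hMYC-ER arrays, and was 73.1, 58.8 and 42.9 on hlk arrays 7, 8 and 9. The models overlapped. Its log2 signal was 5.98 ± 0.51 on the 6 hMYC-ER arrays and 5.84 ± 0.33 on the 3 hlk arrays (mean ± SD), a difference of 0.14 (SE 0.31). The names of the pax5 probe sets differ only in the letter before the last digit, S or A, which is the array maker's mark for the direction of the sequence that the probes were designed on. The strand that each set reads was not analysed here, since no probe sequences were used. The array holds 81 such pairs of probe sets. By limma over all probe sets, where 18.9% were called, 6 of the S sets and 3 of the A sets were called, and in 0 pairs were both called in the same direction. The S set differed by at least 2 in log2 signal in 2 pairs, pax5 being one, and in both of these the A set differed by less than 1. When both probe sets of pax5 were averaged, the difference was 3.46.

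The ETS factor gene spi1b was measured by a pair of probe sets that gave nearly the same difference. In the brighter set (DrAffx.1.56.S1_at) the hMYC-ER signals had a lowest value of 1593, a median of 2345 and a highest value of 3193. The hlk signals were 78.5, 42.9 and 66.3 on arrays 7, 8 and 9. In the dimmer set (Dr.7612.1.A1_at) the hMYC-ER signals had a lowest value of 1254, a median of 1607 and a highest value of 2590, and the hlk signals were 42.5, 43.0 and 45.9. In both sets all hMYC-ER arrays lay above all hlk arrays, and no hlk value was at the floor. The log2 signal of the brighter set was 11.23 ± 0.36 on the 6 hMYC-ER arrays and 5.95 ± 0.56 on the 3 hlk arrays (mean ± SD), a difference of 5.28 (SE 0.29). For the dimmer set it was 10.69 ± 0.43 on the 6 hMYC-ER arrays and 5.40 ± 0.21 on the 3 hlk arrays (mean ± SD), a difference of 5.29 (SE 0.26). As a ratio of mean deposited signals, hMYC-ER over hlk, the brighter set gave 39.1 and the dimmer set 38.9.

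The light chain gene igl1c1 was far higher on every hMYC-ER array. Its only probe set (Dr.10685.1.S1_at) had a lowest signal of 15072, a median of 16912 and a highest of 20621 on the hMYC-ER arrays. On hlk arrays 7, 8 and 9 the signals were 60.8, 97.9 and 80.7. The lowest hMYC-ER signal was 154 times the highest hlk signal. In log2 signal igl1c1 stood at 14.04 ± 0.10 on the 6 hMYC-ER arrays and 6.33 ± 0.41 on the 3 hlk arrays (mean ± SD), a difference of 7.72 (SE 0.17). This is above the 6.78 of pax5, but with a floor at a signal of 1 pax5 had the larger value, 7.78.

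**Figure D1:**
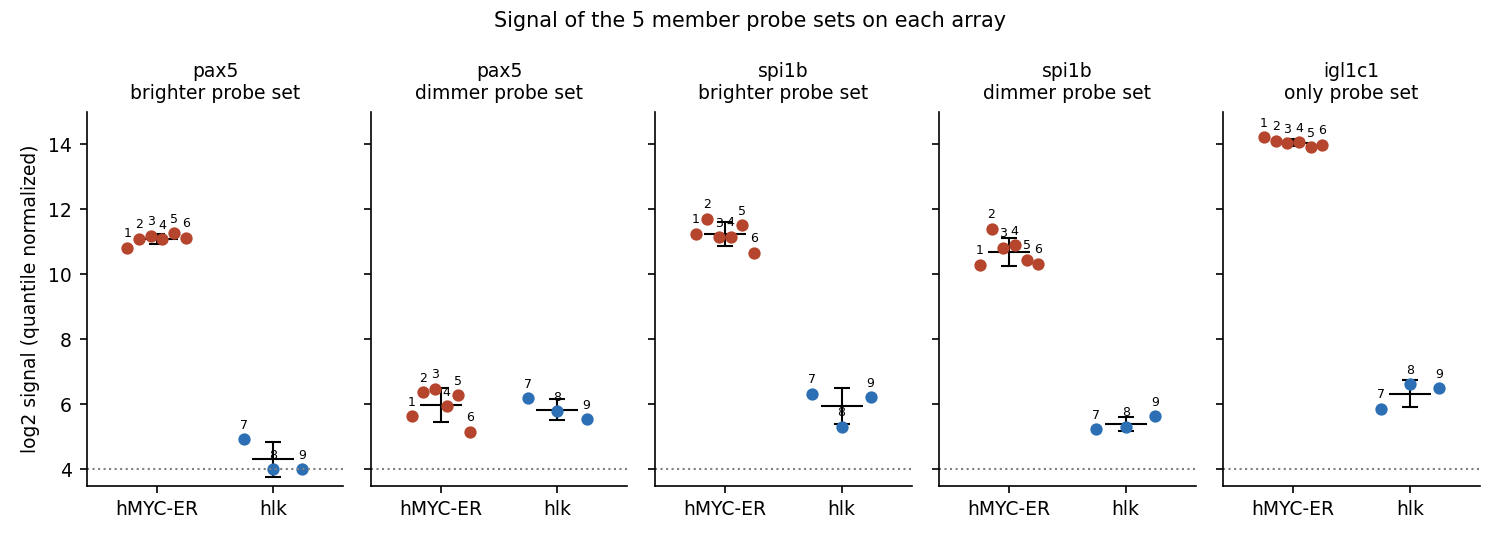
Log2 signal (quantile normalized, vertical axis) of the 5 probe sets of pax5, spi1b and igl1c1 on the 6 hMYC-ER arrays (red) and the 3 hlk arrays (blue). Each point is 1 array with its sample number, the bar and whiskers are the mean and SD of each model, and the dotted line is the floor at 4. In 4 of the 5 probe sets all hMYC-ER points lie above all hlk points, and in the dimmer pax5 probe set the models overlap.

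The models did not overlap for 4 of the 5 member probe sets, all with hMYC-ER above hlk. Over all tested probe sets, 9.61% had every hMYC-ER value above every hlk value. These members were picked for this difference, so nothing is read from the comparison of the 2 shares.

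**Figure D2:**
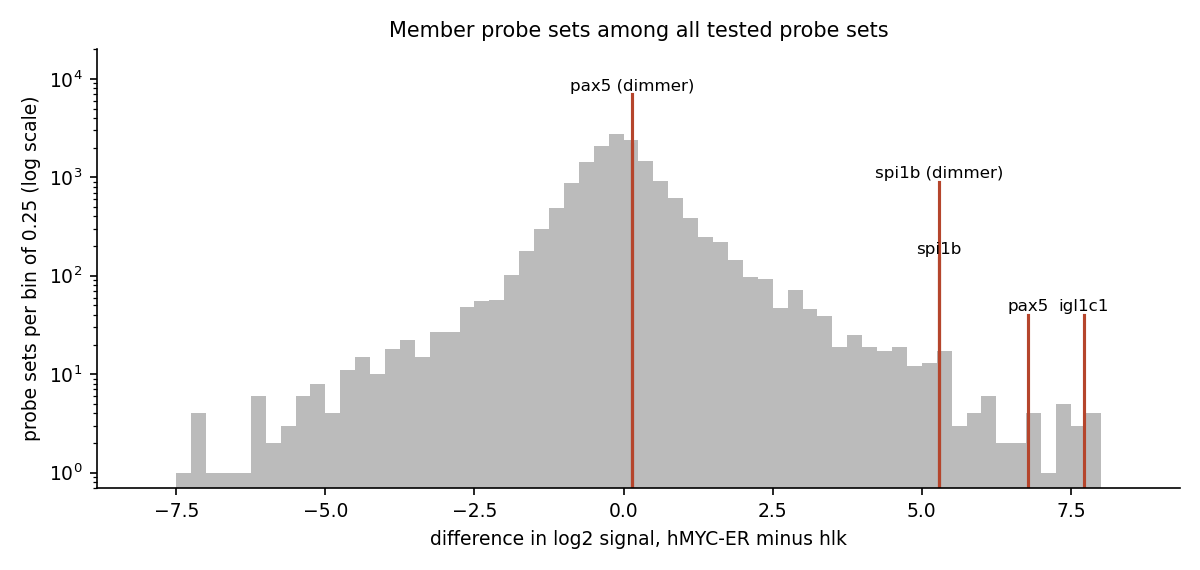
Number of probe sets (vertical axis, log scale) per bin of the difference in log2 signal, hMYC-ER minus hlk (horizontal axis), for all 15502 tested probe sets. Red lines mark the 5 member probe sets: igl1c1 at 7.72, pax5 at 6.78 and both spi1b sets at 5.28 and 5.29 lie in the right-hand tail, and the dimmer pax5 set lies at 0.14.

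RNA quality differed on 1 array. For the control gene gapdhs, the ratio of the signal at the 3' end of the transcript to that at the 5' end was 50.8 on hlk array 7, and ran from 2.2 to 4.50 on the other 8 arrays. On this array pax5 (4.93) and the brighter spi1b set (6.33) had their highest hlk log2 signals, while the dimmer spi1b set (5.24) and igl1c1 (5.86) had their lowest. Leaving it out gave differences of 7.09 for pax5, 5.48 and 5.23 for the brighter and dimmer spi1b sets, and 7.50 for igl1c1.

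Within the hMYC-ER model, igl1c1 and pax5 had smaller SDs than spi1b. The genes were chosen by their differences on these same arrays, so their spread may not be free of that choice. For igl1c1 the SD was 0.10 in log2 signal. Of 8686 probe sets with a mean hMYC-ER log2 signal above 6, which were not matched for brightness, 4.08% had a smaller SD. For pax5 (brighter set) the SD was 0.15, and 13% of those probe sets had a smaller one. In deposited signals the highest array was 1.37 times the lowest for igl1c1 and 1.36 times for pax5, so the order of these genes differs between scalings. Both spi1b sets varied more, with SDs of 0.36 and 0.43, and 64.2% and 74.3% of the probe sets had smaller values. Array 2 was highest for spi1b in both sets, at 11.70 and 11.40, while the lowest array was 6 in the brighter set (10.66) and 1 in the dimmer set (10.29).

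Most pairs of the 3 genes showed no relation from array to array within hMYC-ER that passed a test. In all, 4 pairs of probe sets were compared over these 6 arrays, with two-sided exact permutation tests over all orders of the arrays and adjustment over the 4 pairs. Pax5 and spi1b had Pearson's r of 0.06 (exact permutation p 0.922, adjusted p 0.922) and a Spearman coefficient of -0.09 (p 0.919, adjusted p 0.919). Spi1b and igl1c1 had r of 0.16 (exact permutation p 0.789, adjusted p 0.922) and a Spearman coefficient of 0.31 (p 0.564, adjusted p 0.752). Both spi1b probe sets, which read the same gene, had r of 0.58 (exact permutation p 0.232, adjusted p 0.464) and a Spearman coefficient of 0.37 (p 0.497, adjusted p 0.752). Without the 2 arrays farthest from the median of the first gene named, r was -0.34 for pax5 and spi1b, -0.56 for spi1b and igl1c1, and -0.63 for the spi1b pair.

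Only pax5 and igl1c1 moved against each other in the quantile normalized values, with r of -0.93 (exact permutation p 0.00972, adjusted p 0.0389) and a Spearman coefficient of -0.89 (p 0.0333, adjusted p 0.133). Array 1 had the lowest pax5 (10.82) and the highest igl1c1 (14.20), and array 5 had the highest pax5 (11.27) and the lowest igl1c1 (13.91). Without the 2 arrays farthest from the median of pax5, r was -0.54. In the signals as deposited r was -0.76 (adjusted exact permutation p 0.317), and with each array centred on its median it was -0.33 (adjusted exact permutation p 0.981). The relation thus did not hold under the other scalings. Array 1 also had the highest gapdhs ratio among the hMYC-ER arrays, 4.50 against 2.24 to 2.77 on the other 5, and the part of RNA quality in this relation was not tested.

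**Figure D3:**
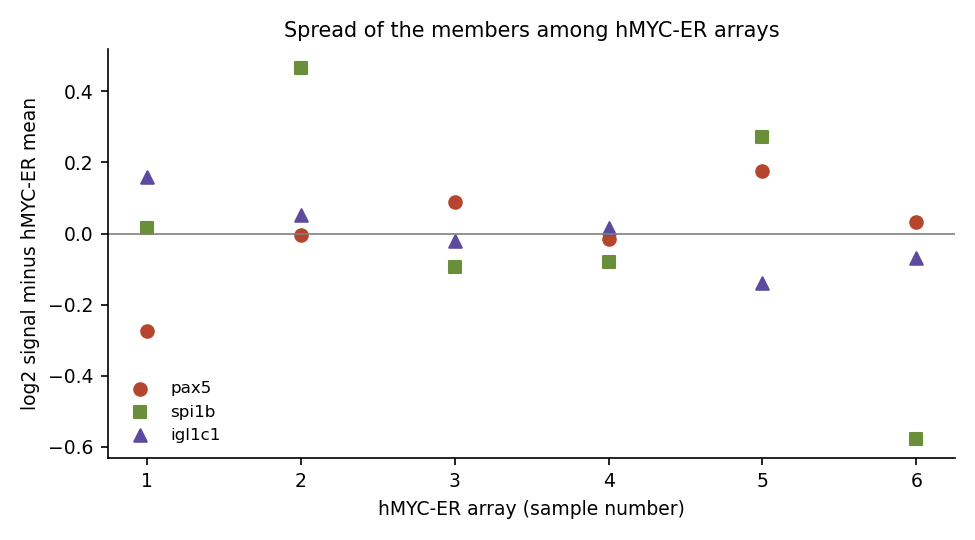
Log2 signal minus the hMYC-ER mean (vertical axis) of pax5, spi1b (brighter probe sets) and igl1c1 on the 6 hMYC-ER arrays (horizontal axis, sample numbers). Each point is 1 array. Spi1b runs from 10.66 to 11.70, a wider range than pax5 (10.82 to 11.27) and igl1c1 (13.91 to 14.20). In these quantile normalized values pax5 and igl1c1 lie on opposite sides of their means on each of the 6 arrays, farthest on arrays 1 and 5.

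Over all 9 arrays the pattern of each member was shared with many genes, since the high hMYC-ER and low hlk levels set most of such a correlation. Likeness was measured as Pearson's r of log2 signal over the 9 arrays against 8666 other genes, as a description. The genes most like pax5 were the chemokine receptor gene cxcr4a (r 0.999), the nucleolar gene lyar (0.997), the junctional adhesion gene jam2a (0.996), the thymosin gene tmsb (0.995) and lrig1 (0.995). For spi1b they were the tryptophan hydroxylase gene tph1b (0.996), arhgap46a (0.996), the arginine methyltransferase gene prmt2 (0.994), cxcr4a (0.993) and elac1 (0.993). For igl1c1 they were cxcr4b (0.999), tmsb (0.998), arhgap35a (0.997), the NADPH oxidase gene ncf1 (0.996) and nccrp1 (0.995). An r above 0.99 was found for 22 genes with pax5, 11 with spi1b and 17 with igl1c1. Among the members themselves r was 0.990 for pax5 with spi1b, 0.990 for pax5 with igl1c1 and 0.984 for spi1b with igl1c1.

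The other genes of the B lineage programme were tested with limma on 1 probe set per gene, with Benjamini-Hochberg adjustment over all 8793 genes. At an adjusted p under 0.05, 22.0% of all genes were called, 10.4% with hMYC-ER higher and 11.6% with hlk higher. Gene lists are described by their counts and medians against these shares. Since the models and arrays are the same ones in which the members were chosen, none of these counts is separate support for the members' difference.

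Of the other transcription factors of early B cells that were measured, 20% were called, about the share of all genes, 22.0%. Of 31 listed regulators other than the members, 10 were measured. Listed factors with no named probe set included ebf1a, ebf1b, ikzf3, irf4a, irf4b, irf8, bach2a, bach2b and pou2af1. The count therefore says nothing about these. The test called 1 gene towards hMYC-ER and 1 towards hlk and left 8 uncalled, with a list median of -0.09. The homeobox gene hhex, which is needed for early lymphoid development in mice, ran from 6.54 to 8.06 in hMYC-ER and lay at the floor on all 3 hlk arrays, at least 9.28-fold higher in hMYC-ER (limma adjusted p 1.69e-04). This bound is set by the floor, and with a floor at 64 the log2 difference was 1.21. The MADS-box factor gene mef2ca stood at 8.03 ± 0.30 on the 6 hMYC-ER arrays and 9.29 ± 0.98 on the 3 hlk arrays (mean ± SD), a difference of -1.26 (limma adjusted p 0.0491). Its models overlapped, and its call ended when any 1 of 7 arrays was left out (1, 2, 4, 5, 6, 8 or 9), with differences from -1.27 to -0.88.

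The relatives of pax5 showed small differences. Of 14 other Pax genes listed, 9 were measured, and limma called 0 of them, and 0 had an unadjusted p under 0.05. Over all 8793 genes, 22.0% were called and 3032 had an unadjusted p under 0.05. The differences of these 9 Pax genes ran from -0.82 to 0.48. Most had signals near the floor in both models, which leaves little room for a difference to show. The gene pax6b lay at the floor on all 9 arrays. For pax6a, pax1b, pax3a, pax2a and pax8 the means ran from 4.11 to 4.77 in hMYC-ER and from 4.08 to 5.23 in hlk. The smallest p-values were those of pax7a, a factor of muscle and pigment precursors, at 5.07 ± 0.84 on the 6 hMYC-ER arrays and 5.89 ± 0.04 on the 3 hlk arrays (mean ± SD) (limma adjusted p 0.261), and of pax2b, a close relative of pax5, at 8.32 ± 0.41 on the 6 hMYC-ER arrays and 7.84 ± 0.62 on the 3 hlk arrays (mean ± SD) (limma adjusted p 0.335).

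Of 28 other ETS genes listed, 16 were measured. The test called 1 gene towards hMYC-ER and 5 towards hlk and left 10 uncalled, with a list median of -0.64. The share called was 37.5%, against 22.0% of all genes. The lymphoid factor gene ets1, which is important in T cells, stood at 7.29 ± 0.27 on the 6 hMYC-ER arrays and 11.56 ± 0.81 on the 3 hlk arrays (mean ± SD), a difference of -4.28 (SE 0.33, limma adjusted p 6.41e-05), and 1 of its 2 probe sets was called. The repressor gene etv6, a partner in human leukaemia fusions, differed by -1.14 (limma adjusted p 0.0084), and elf2a and elf2b differed by -0.99 (limma adjusted p 0.012) and -1.25 (limma adjusted p 0.015). The repressor gene erf was higher in hMYC-ER by 0.49 (limma adjusted p 0.0256), a call that ended without hMYC-ER array 2 (0.48), hlk array 8 (0.51) or hlk array 9 (0.35). Thus spi1b and ets1, members of 1 family, had differences of opposite sign, 5.28 and -4.28.

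Genes that Pax5 is known to switch on in mice were covered thinly. Of 16 listed, only blnk and lef1 had a named probe set. The adaptor gene blnk, which links the B cell receptor to its kinases, stood at 11.05 ± 0.31 (SD, n = 6) in hMYC-ER, against 4.09, 5.42 and 4.00 on hlk arrays 7, 8 and 9, a difference of 6.55 (SE 0.33, limma adjusted p 7.35e-06), with hlk array 9 at the floor. The Wnt pathway factor gene lef1 differed by 0.22 and did not pass (limma adjusted p 0.636). It lay near the floor in both models, at 4.61 in hMYC-ER and 4.39 in hlk on average, so its signal says little about a difference.

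Of 11 listed genes that Pax5 is known to switch off in mice, 7 were measured. The test called 2 towards hMYC-ER and 0 towards hlk and left 5 uncalled, with a list median of 0.39. The share called was 28.6%, against 22.0% of all genes. Of all genes 11.6% were called higher in hlk, so with 7 genes nothing is read from the 0. The gene xbp1, a factor of antibody-secreting cells and of the unfolded protein response, stood at 12.51 ± 0.50 on the 6 hMYC-ER arrays and 9.37 ± 0.39 on the 3 hlk arrays (mean ± SD), a difference of 3.14 (SE 0.31, limma adjusted p 2.9e-04). The LIM-domain gene lmo2, active in blood progenitors, stood at 7.60 ± 0.70 on the 6 hMYC-ER arrays and 5.23 ± 1.07 on the 3 hlk arrays (mean ± SD), a difference of 2.37 (SE 0.54, limma adjusted p 0.015).

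Around the light chain, named coverage was also thin. Of 22 listed immunoglobulin chains and B cell receptor partners other than igl1c1, 1 was measured, the tetraspanin gene cd81a. It stood at 11.33 ± 0.15 (SD, n = 6) in hMYC-ER, against 6.19, 4.69 and 6.99 on hlk arrays 7, 8 and 9, a difference of 5.38 (SE 0.42, limma adjusted p 6.93e-05), and 2 of its 3 probe sets were called. The mean of the 3 differed by 2.85. Heavy chain genes had no named probe set and were not analysed here.

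Downstream of the receptor, genes went both ways. Of 20 listed genes of B cell receptor signalling, 9 were measured. The test called 4 towards hMYC-ER and 3 towards hlk and left 2 uncalled. The share called was 77.8%, against 22.0% of all genes, and the list median was 0.86. The kinase gene btk, required for B cell development in humans, stood at 10.23 ± 0.17 on the 6 hMYC-ER arrays and 4.83 ± 0.81 on the 3 hlk arrays (mean ± SD), a difference of 5.40 (limma adjusted p 1.19e-05). The kinase gene syk, which starts signalling at the receptor, stood at 8.59 ± 0.41 on the 6 hMYC-ER arrays and 4.32 ± 0.55 on the 3 hlk arrays (mean ± SD), a difference of 4.27 (limma adjusted p 4.5e-05). Its hlk value was at the floor on arrays 7 and 8, and with a floor at 64 the difference was 2.59. For btk 1 hlk array was at the floor. The phosphatase gene ptpn6, a brake on antigen receptor signals, went the other way, with 9.25 ± 0.21 on the 6 hMYC-ER arrays and 11.97 ± 0.31 on the 3 hlk arrays (mean ± SD), a difference of -2.72 (limma adjusted p 2.12e-05). The protein kinase C gene prkcbb was also higher in hlk (difference -1.58, limma adjusted p 0.00113).

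Because PU.1 also drives myeloid cells, its myeloid target genes were described beside spi1b. Of 27 listed, 14 were measured. The share called was 35.7%, against 22.0% of all genes. The test called 4 towards hMYC-ER and 1 towards hlk and left 9 uncalled, with a list median of 0.07. The 4 were btk (above) and 3 subunits of the phagocyte NADPH oxidase. Of these, ncf1 stood at 13.66 ± 0.32 on the 6 hMYC-ER arrays and 5.73 ± 0.30 on the 3 hlk arrays (mean ± SD), a difference of 7.93 (limma adjusted p 5.05e-07). The membrane subunit gene cyba differed by 3.94 (limma adjusted p 1.68e-05, 1 of 2 probe sets called), or 2.1 as the mean of both sets. The subunit gene ncf4 differed by 1.59 (limma adjusted p 0.00517), and by 1.03 with a floor at 64. The actin regulator gene coro1a was higher in hlk (-0.95, limma adjusted p 0.00333), but its second probe set lay in the other direction, and the mean of both gave -0.38 and did not pass. For defining genes of mature myeloid cells, each gene is read between the models only. The neutrophil peroxidase gene mpx stood at 4.22 in hMYC-ER and 4.58 in hlk on average, and the macrophage receptor gene csf1ra lay at 4.00 in hMYC-ER and 4.67 in hlk. The lysozyme gene lyz averaged 6.03 in hMYC-ER and 5.96 in hlk. The macrophage gene cd68, at 12.02 on the hMYC-ER arrays and 13.01 on the hlk arrays, lay far above the floor.

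**Figure D4:**
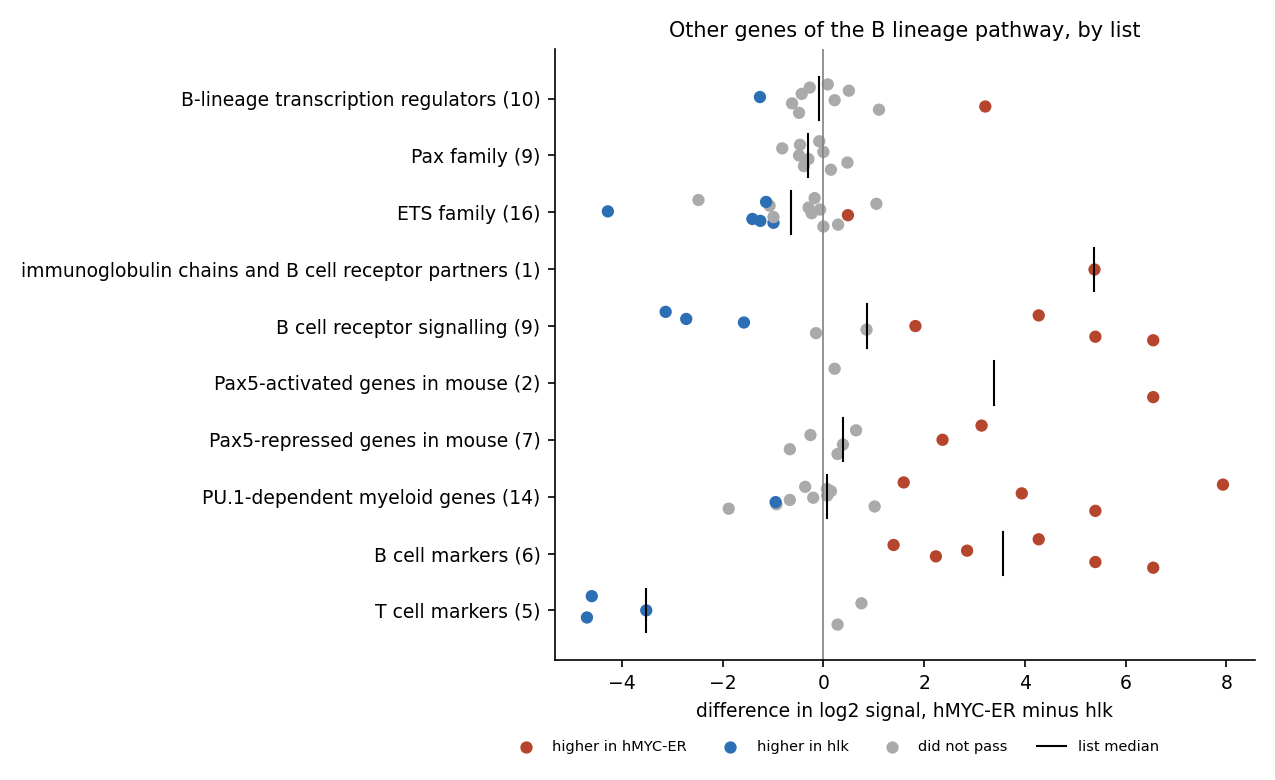
Difference in log2 signal, hMYC-ER minus hlk (horizontal axis), of the measured genes of each list (rows, number measured in brackets), leaving out pax5, spi1b and igl1c1. Each point is 1 gene, red where higher in hMYC-ER and blue where higher in hlk at an adjusted p under 0.05, grey where the test was not passed, and the black bar is the list median. All 6 B cell markers lie on the hMYC-ER side, and the 3 T cell markers that passed lie on the hlk side. All 9 other Pax genes lie between -0.82 and 0.48, most of them with signals near the floor in both models.

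The sorted cells are labelled T-lymphoblasts, and markers of both lineages were set beside the members. Of 25 listed T cell markers, 5 were measured. The share called was 60%, against 22.0% of all genes, and the list median was -3.52. The test called 3 towards hlk and 0 towards hMYC-ER and left 2 uncalled. The 3 were the T cell receptor gene trac (7.02 ± 0.95 in hMYC-ER and 11.61 ± 1.32 in hlk, SD, n = 6 and 3, limma adjusted p 0.00227, 1 of 3 probe sets called), the T lineage factor gene gata3 (difference -4.69, limma adjusted p 0.00133) and runx3 (difference -3.52, limma adjusted p 2.79e-04). The thymocyte factor gene tox stood at 7.13 in hMYC-ER and 6.37 in hlk on average (limma adjusted p 0.0881, unadjusted p 0.0246), and the costimulatory receptor gene cd28 at 6.49 in hMYC-ER and 6.21 in hlk (limma adjusted p 0.761). As a mean of its 3 probe sets, trac differed by -2.22. The summed signal of the 5 T cell markers was 1074 to 2871 on the hMYC-ER arrays and 19498 to 22894 on the hlk arrays, where runx3 made up most of it. Of 19 listed B cell markers other than the members, 6 were measured. All 6 were called higher in hMYC-ER, against 10.4% of all genes, with a list median of 3.56. Of these, blnk, btk and syk are also in the signalling list. Without any 1 of hlk arrays 7, 8 and 9, 5 of the 6 were called. The call that ended was that of a gene near the floor, at 5.42 in hMYC-ER and 4.02 in hlk on average, with 2 hlk arrays at the floor. The strongest of those not yet described was cd74b, the invariant chain of antigen presentation, with a difference of 2.85 (limma adjusted p 1e-05). The summed signal of the 6 B cell markers was 32713 to 47176 on the hMYC-ER arrays and 5339 to 8404 on the hlk arrays. In both models cd74b and the other invariant chain gene, cd74a, made up most of it. The part of cells of another lineage in the members' difference was not tested.

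Markers of other cell types gave few calls, from 0% to 28.6% of a list, against 22.0% of all genes. Among 6 neutrophil markers the proteoglycan gene srgn was higher in hMYC-ER (2.40, limma adjusted p 0.00421). The other 5 were not called, and the list median was -0.33. The summed signals were 845 to 2172 in hMYC-ER, where srgn made up most of them, and 306 to 677 in hlk. Among 6 macrophage markers cd68 was higher in hlk (-0.99, limma adjusted p 0.00103), with sums of 3903 to 4829 in hMYC-ER and 7850 to 9121 in hlk. In both models cd68 made up most of these sums, and the other 5 macrophage markers were not called. Of 7 progenitor markers, 2 were higher in hMYC-ER, namely lmo2 (above) and the blood stem cell factor gene gata2a, which was at the floor on all 3 hlk arrays and at least 44.5-fold higher in hMYC-ER (limma adjusted p 3.43e-06), or by 3.47 in log2 signal with a floor at 64. The remaining 5 progenitor markers were not called, and the list median was -0.27. Among these, kita, myb, runx1 and meis1b had differences from -0.43 to -0.27. The summed signals of the 7 progenitor markers were 1462 to 2690 in hMYC-ER and 496 to 3021 in hlk. The muscle gene mylz3 (-1.22, limma adjusted p 0.00372, 10 markers measured) and the liver gene fgb (-1.31, limma adjusted p 0.0455, 9 measured) were higher in hlk. The fgb call ended when any 1 of 7 arrays was left out (all but 5 and 7), with differences from -1.30 to -0.90. On 4 of the 6 hMYC-ER arrays fgb was at the floor. With a floor at 64 it differed by -0.10 and did not pass (limma adjusted p 0.346). The 9 liver and pancreas markers had a median of -1.07, with differences from -1.60 to -0.15, and 4 had an unadjusted p under 0.05. The median of the 10 muscle markers was -0.52. Summed signals on hlk array 7, which had the gapdhs ratio of 50.8, were the highest of any array for several lists. These included muscle (1327, hMYC-ER at most 647) and skin markers (1167, hMYC-ER at most 482). Others were liver and pancreas (1412, hMYC-ER at most 449) and erythroid markers (1035, hMYC-ER at most 909). Its endothelial (111), kidney (121) and progenitor (496) sums were the lowest of the 3 hlk arrays. The part of other tissue in this was not tested. Limma called 0 of the 9 erythroid, 5 thrombocyte, 2 cytotoxic, 4 endothelial, 9 skin and 6 kidney markers measured. At an unadjusted p under 0.05 there was 1 thrombocyte, 1 cytotoxic, 2 endothelial and 2 skin markers, and 0 erythroid and 0 kidney markers. Over all 8793 genes, 3032 had an unadjusted p under 0.05, so nothing is read from these small counts.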

How the data were processed

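Signal intensities of 15617 probe sets on 9 Affymetrix arrays (6 hMYC-ER, 3 hlk) were used as deposited by the authors. Per the labels' protocols, biotin-labelled cRNA was made from 100 ng of total RNA. The deposited intensities had been scaled by the authors, since their mean, trimmed by 2% from either side, was 500.1 or 500.2 throughout. The sources used here do not say how the signals were computed. The number of arrays limits the precision.

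The array medians of log2 intensity differed by 0.31, above the limit of 0.1 set for leaving them, so arrays were quantile normalized, control probe sets (115) were removed, and signals were floored at 16 before log2 was taken. Between 15.8% and 20.2% of the deposited intensities lay under 16. Symbols came from the platform annotation, updated through Entrez identifiers with a RefSeq gene table of assembly GRCz12tu. Of 15502 probe sets, 10795 had 1 symbol, 135 several and 4572 none. The brightest probe set stood for each gene. The files name no genome build, and neither coordinates nor sequences were used.

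A limma 3.58.1 fit (lmFit, eBayes, no covariate) in R 4.3.3, tested on simulated data, set hMYC-ER against hlk. Tables and figures used Python 3.11.15 with matplotlib 3.10.9. The named genes were all member probe sets, up to 5 called genes with the smallest p in each pathway list (2 where none was called), up to 3 in each marker list, and the 5 genes most like each member. A part of that rule, on the brightest relative in each family, was not applied, because levels of different probe sets are not compared. Other genes were chosen after their values were seen, namely lef1, mpx, csf1ra, lyz, tox and cd28. The members and lists were chosen with earlier results of these data known. Alternatives were other scalings, floors of 1 and 64, leaving out the dimmest 1 in 3 probe sets, array weights, a robust prior with an intensity trend, averaging the probe sets of a gene, and leaving out each array in turn.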

Additional observations from a re-analysis of the deposited data

Results flagged for a closer look

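Of 47 probe sets and genes described, 6 genes had 1 hMYC-ER array far from the other 5. For normally spread values chance gives about 1 in 20. That rate need not hold where values were raised to the floor, as for fgb and gata3. None of the member probe sets was among the 6. In log2 signal, array 5 stood highest for trac (8.88, others 6.26 to 6.94) and for fgb (5.01, others 4.00 to 4.14). Array 6 stood lowest for gata3 (4.00, others 5.48 to 6.22) and for gata2a (8.66, others 9.48 to 9.78). Array 1 was highest for elf2a (10.20, others 9.25 to 9.56), and array 3 was highest for mef2ca (8.59, others 7.75 to 8.05).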

How the results depend on the processing

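The 5 member differences were recomputed under other scalings, floors and filters and without each array. No value of the 4 separated probe sets turned its sign. The brighter pax5 set gave 7.78 with a floor at 1, 5.09 with a floor at 64 and 3.46 as a mean of both pax5 sets, and the dimmer spi1b set gave 4.69 with a floor at 64. Leaving out 1 array at a time gave 6.62 to 7.09 for pax5, 4.97 to 5.48 and 5.16 to 5.40 for spi1b, and 7.50 to 7.85 for igl1c1. The dimmer pax5 set ran from -0.01 to 0.33. The relation of pax5 and igl1c1 within hMYC-ER weakened to -0.76 in deposited signals and to -0.33 with centred arrays, both chosen after seeing the data. Of 40 named genes past the threshold, 36 kept call and direction under every alternative that measured them. The exceptions were coro1a, erf, fgb and mef2ca. The count of B-lineage regulators was 1 with either other floor or in deposited signals, against 2, and ran from 1 to 3 without single arrays. Marker counts moved by single genes. With array weights there was 1 erythroid and 1 thrombocyte marker, with a floor at 1 there was 1 thrombocyte, 1 endothelial and 0 liver and pancreas markers, and with a floor at 64 there were 0 of the last. Centred arrays gave 1 cytotoxic and 1 endothelial marker, deposited signals gave 1 endothelial marker, and leaving out dim probe sets gave 1 skin marker and 2 liver and pancreas markers. Without single arrays these counts ran from 0 to 1 for erythroid, thrombocyte, cytotoxic, endothelial, skin and kidney markers, from 1 to 2 for neutrophil markers and from 0 to 2 for liver and pancreas markers. The causes were not tested. No paired analysis was possible because the labels link no hMYC-ER array to an hlk array. Values near the floor limit the hlk levels of pax5.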
